A study of Homo sapiens with 6 samples.

Results

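The S100 genes encode small calcium-binding proteins, and 10 of them (S100A2, S100A3, S100A4, S100A6, S100A10, S100A11, S100A13, S100A14, S100A16 and S100P) were followed in HCT116 cells with and without oxaliplatin. They were found by their symbols among the 27942 genes of the deposited table, and all 10 were present. HCT116 is an established human colorectal carcinoma line. RNA came from cells treated for 24 h with 0.5 µM oxaliplatin (OXA, 3 libraries) or from cells given no treatment (NT, 3 libraries), all grown in RPMI with fetal bovine serum. The labels list antibiotics in the medium, whereas the study's methods say that none were used. All libraries come from this single line and a single dose and time, and the labels do not say whether the replicates were separate cultures, so p-values measure the spread between these libraries. In bulk RNA, fewer cells making a transcript and less RNA per cell cannot be told apart.

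Most S100 proteins work as dimers. When calcium binds their EF-hand loops, a hydrophobic face opens and holds a partner protein, such as an annexin or a cytoskeletal protein. S100A10 is the exception, since it has lost calcium binding and sits permanently in a complex with annexin A2. Nearly all S100A genes lie in the epidermal differentiation complex of chromosome 1, on both sides of the genes of the cornified envelope, whereas S100P lies on chromosome 4. Several members, S100A4, S100A6 and S100P among them, have long been studied in colorectal carcinoma.

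In these libraries 8 of the 9 tested S100 genes had more transcript in every OXA library than in any NT library. The same held for 14.5% of all genes tested. None of the 9 had less in every OXA library. S100A6, S100A2, S100A11 and S100A16 rose between 1.71-fold and 2.17-fold and passed the test, where 5.07% of all genes did and 2.78% were higher. S100A3, S100A10, S100A13 and S100A14 were 1.28 to 2.08 times as high in OXA and did not pass, though they did once the replicate number was included in the fit, where 12.1% of all genes were called higher. S100A4 overlapped between the groups, and S100P was close to absent and was not tested.

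The sequence before the transcription start was taken from RefSeq (GRCh38.p14) for all 10 genes, as the 250 bases upstream of each of 14 annotated starts. Shown here are those of S100A6, S100A2 and S100A3, whose transcripts were more than 2-fold higher in OXA, and that of S100A4, the abundant member whose groups overlapped. All 4 are on the minus strand of chromosome 1 and are written 5′ to 3′ along the gene. Capitals mark the motifs that were searched on both strands. These were the AP-1 motif, spelled TGANTCA, and the motif of the TEAD factors, spelled GGAATG. The others were the GC box of Sp1-like factors, spelled GGGCGG, and the TATA motif at which the basal machinery assembles, spelled TATAAA.
S100A6, chr1:153535992-153536241: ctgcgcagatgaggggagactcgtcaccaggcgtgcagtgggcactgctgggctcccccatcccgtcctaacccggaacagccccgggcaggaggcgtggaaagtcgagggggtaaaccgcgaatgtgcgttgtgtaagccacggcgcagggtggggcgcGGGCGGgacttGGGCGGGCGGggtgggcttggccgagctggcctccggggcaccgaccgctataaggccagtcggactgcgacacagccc
S100A2, chr1:153565845-153566094: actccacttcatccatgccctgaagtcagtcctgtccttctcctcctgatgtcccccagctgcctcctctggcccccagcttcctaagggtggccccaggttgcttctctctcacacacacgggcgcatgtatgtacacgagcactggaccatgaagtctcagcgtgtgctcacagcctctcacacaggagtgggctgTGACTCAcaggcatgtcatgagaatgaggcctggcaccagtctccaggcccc
S100A3, chr1:153549259-153549508: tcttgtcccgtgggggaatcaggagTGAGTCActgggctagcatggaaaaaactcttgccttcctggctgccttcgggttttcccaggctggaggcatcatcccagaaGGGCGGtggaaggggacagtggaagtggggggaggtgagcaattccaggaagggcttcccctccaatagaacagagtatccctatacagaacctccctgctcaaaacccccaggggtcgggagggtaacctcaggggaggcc
S100A4, chr1:153545807-153546056: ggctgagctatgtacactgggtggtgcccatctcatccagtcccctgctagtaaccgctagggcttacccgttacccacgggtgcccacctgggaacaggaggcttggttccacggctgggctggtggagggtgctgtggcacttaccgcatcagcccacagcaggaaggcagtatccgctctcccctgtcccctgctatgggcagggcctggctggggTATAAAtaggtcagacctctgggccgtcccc
The S100A6 promoter holds 3 GC boxes, of which the pair nearest to the start overlap. The AP-1 motif occurs in 2 of the 14 windows, against 6.57% of the 35116 RefSeq promoters of the same length. It stands 52 bases before the S100A2 start shown and far upstream in the S100A3 window, while the window of the other S100A2 start holds none of the motifs named here. The TEAD motif, found in 11.9% of all promoters, occurs in 1 of the 14 S100 promoters, at S100A16. GC boxes occur in 6 of the 14 against 42.6% of all promoters, and the TATA motif in 3 of the 14 against 10.7%, at S100A4, S100A13 and S100P. GC content of the 14 windows ran from 55.6% at S100P to 71.2% at S100A10, against a median of 58% over all promoters. These are matches of letters only, and no binding was measured. The windows of S100A6, S100A2 and S100A4 lie inside the gene bounds given below, which come from the GENCODE 44 annotation. Starts that GENCODE places further upstream in these genes were not searched.

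Library totals lay between 32979521 and 40967880 counts. Normalized counts below are raw counts divided by the TMM size of the library, and the depth behind each value is the raw count. Of 12 epithelial markers, 11 were tested, led by KRT8, and CDX1 had 0 counts. None was called by edgeR without a block. With the replicate block KRT8, KRT18, KRT19 and CLDN4 were higher and CDH1 lower, where 12.1% of all genes were called higher and 10.9% lower. KRT19 had a log2 change of 1.29 (adjusted p = 0.0616 by edgeR, 0.00673 with the block). The summed level of the epithelial markers was 81500 to 117695 normalized counts in NT and 131808 to 156333 in OXA. Most of this sum was keratin. On average KRT8 had 39182 in NT and 54402 in OXA, KRT18 had 30144 and 37416, and KRT19 had 12220 and 29835. Of the 11 tested markers, 6 had a positive log2 change and 5 a negative one, among them EPCAM (-0.040) and KRT20 (-0.48). The part of the higher sum in the S100 result was not tested. Of 12 myeloid and lymphoid markers, 11 had at most 20 counts in any library and CD3D, MS4A1 and FCGR3A were at 0, with summed levels of 190.1 to 229 in NT and 222 to 260 in OXA. Of 12 fibroblast and endothelial markers, 9 had at most 20 counts and DCN and LUM were at 0. Their sum of 349 to 536 in NT and 904 to 1219 in OXA was led by ACTA2 (205 and 821 on average, adjusted p = 0.00178 by edgeR), and its part in the S100 result was not tested either. CDKN1A, the gene of the cell cycle inhibitor p21, had 4143 to 6629 raw counts in NT libraries and 37137 to 40216 in OXA libraries. NT library 1 stood apart from the other NT libraries, with a chi-square per gene of 83.1 and 75.7 against NT libraries 2 and 3, where pairs of other libraries within a group gave 19.2 to 29.6.

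Together the 10 genes took 0.0885%, 0.0968% and 0.108% of all counts in NT libraries 1 to 3, and 0.156%, 0.162% and 0.173% in OXA libraries 1 to 3. Every OXA library thus lay above every NT library. To compare genes with each other, CPM values (counts scaled to a common library total) were divided by the length of the exons in kb. S100A6 led this scale, with 376 ± 54.0 CPM per kb in NT (mean ± SD over 3 libraries) and 815 ± 75.2 after OXA. S100A4 (154 ± 63.6), S100A10 (151.5 ± 33.1) and S100A11 (148 ± 13.03) followed in NT, at levels that do not differ beyond their spread. S100A14 (54.5 ± 4.52) and S100A16 (53.3 ± 10.0) came next and also overlapped, ahead of S100A13 (17.7 ± 1.89). S100A2 (3.58 ± 0.802) and S100A3 (1.31 ± 0.297) were low, and S100P was at 0.0359 ± 0.0622.

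In OXA, S100A11 (252 ± 15.7 CPM per kb), S100A10 (227 ± 36.6) and S100A4 (172 ± 59.2) again overlapped with each other, while S100A16 (91.3 ± 4.89) stood ahead of S100A14 (70.0 ± 7.01) without overlap. Divided by the mean transcript length instead, S100A10 came ahead of S100A4 and S100A16 ahead of S100A14 in NT, and S100A10 ahead of S100A11 in OXA. S100A6 made up 37.0%, 39.7% and 40.5% of the summed S100 level in NT libraries 1 to 3 and 47.2%, 48.5% and 51.3% in OXA libraries 1 to 3. Among all tested genes S100A6 stood at percentile 99.5 of the NT levels, S100A2 at percentile 45.3 and S100A3 at percentile 26.5, so the genes with a change near 2-fold differ widely in abundance.

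**Figure D1:**
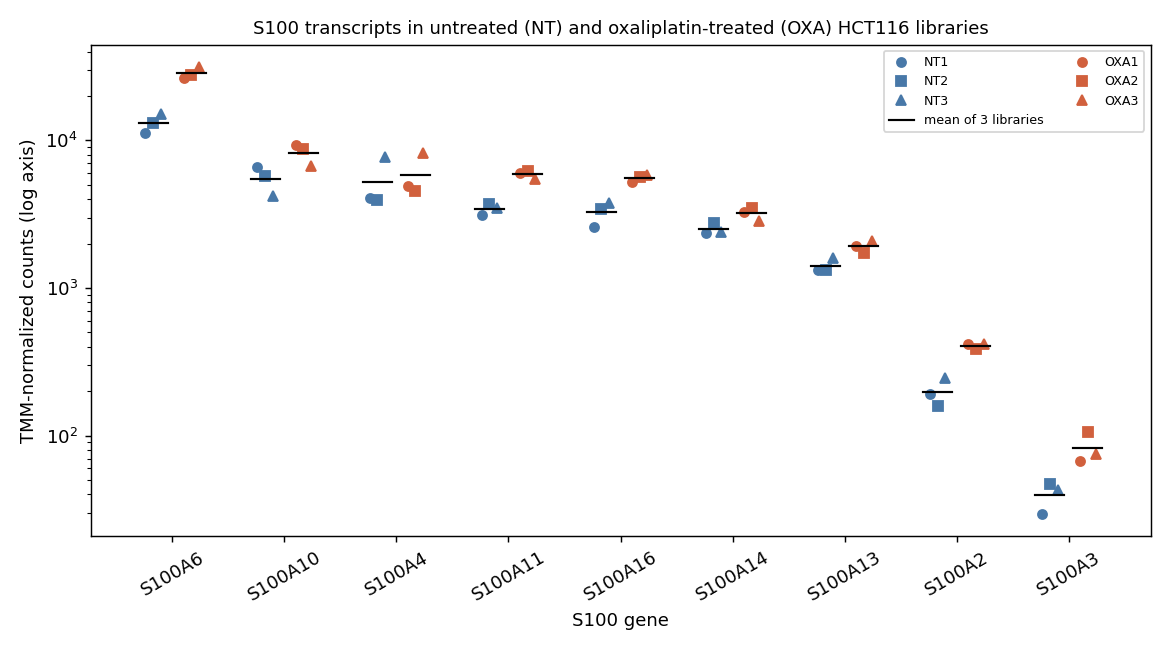
TMM-normalized counts (log axis) of the 9 tested S100 genes in each library, ordered by their mean in NT, with NT in blue, OXA in orange, a marker shape for each replicate number and a bar at the mean of 3 libraries. All OXA points lie above all NT points for every gene except S100A4, whose replicate 3 libraries, at 7749 in NT and 8187 in OXA, lie above the others of both groups.

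The comparison of OXA with NT asks which transcripts change after a day at the dose that the labels call the IC50. By edgeR's quasi-likelihood test, 4 of the 9 tested members were called at an adjusted p under 0.05, against 5.07% of the 13727 genes tested. All 4 were higher, as were 2.78% of all genes, and 0 were lower, against 2.29%. The count of 4 became 5, 2 and 3 without NT library 1, 2 or 3, and 1, 2 and 2 without OXA library 1, 2 or 3. Over all genes the count called higher went from 381 to 623, 153 and 115 without NT library 1, 2 or 3. It was 66, 94 and 102 without OXA library 1, 2 or 3. With a block for the replicate number, 8 of the 9 were called, against 23.0% of all genes, all of them higher, against 12.1%, and 0 lower, against 10.9%. All OXA libraries lay above all NT libraries in 8 of the 9, against 14.5% of all genes, and all lay below in 0, against 14.4%, where 28.9% of all genes did not overlap. A log2 change of at least 1, that is 2-fold, was estimated for S100A2, S100A3 and S100A6, against 1.80% of all genes. The log2 change is the log2 of OXA over NT as edgeR estimates it. Its median over the 9 was 0.77, beside 0.023 over all tested genes. S100P did not pass the filter on low counts, which needs about 10 counts in 3 libraries, and is not part of these numbers.

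Of S100A11 and S100A10, each known for an annexin partner, only S100A11 gave a call by edgeR without a block. With the replicate block both were called, as they were by DESeq2, and a difference between these genes was not tested. S100A11 (ENSG00000163191, chr1:152032506-152047907, minus strand, GRCh38) binds annexin A1 and takes part in growth control of epithelial cells. It had 3128, 3734 and 3482 normalized counts in NT libraries 1 to 3, and 5988, 6192 and 5479.6 in OXA libraries 1 to 3. The groups are far apart, with the lowest OXA library well above the highest NT library. edgeR put the log2 change at 0.77 (± 0.099 SE, 1.71-fold, adjusted p = 0.00825). Without OXA library 1 the edgeR adjusted p was 0.0599, and in the other fits that left out 1 library it was at most 0.0477. The annotation holds 8 pseudogenes of S100A11, none of them in the deposited table, and how reads shared with them were counted is not given in the sources used here.

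S100A10 (ENSG00000197747, chr1:151982915-151993859, minus strand), the p11 subunit of the annexin A2 complex, had 6601, 5730 and 4218 normalized counts in NT libraries 1 to 3 and 9309, 8690 and 6755 in OXA libraries 1 to 3. In both groups replicate 3 was lowest, at 0.684 and 0.751 of the mean of the other libraries of its group. The highest NT and the lowest OXA library nearly met. With all 6 libraries the log2 change was 0.58 (± 0.18 SE, 95% interval 0.15 to 1.008, adjusted p = 0.118 by edgeR). With the replicate block it was 0.59 (± 0.055 SE, adjusted p = 0.00329 by edgeR), and without NT library 1 it was 0.73 (adjusted p = 0.0283 by edgeR).

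S100A6 and S100A2 had the largest rises among the 4 genes called. S100A6 (ENSG00000197956, chr1:153534599-153536244, minus strand), or calcyclin, is linked to proliferation and binds the calcyclin-binding protein CACYBP. Its normalized counts were 11280.5, 13097.5 and 15052 in NT libraries 1 to 3 and 26425, 27527 and 31427 in OXA libraries 1 to 3. No library came near the other group, and the lowest OXA library was far above the highest NT library. OXA exceeded NT by a log2 change of 1.12 (± 0.13 SE, 2.17-fold with a 95% interval of 1.76 to 2.66, adjusted p = 0.00551 by edgeR). S100A6 passed in all 14 alternative settings, with estimates from 1.008 to 1.19.

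S100A2 (ENSG00000196754, chr1:153561108-153567890, minus strand) is a largely nuclear S100 protein of squamous epithelia. Its normalized counts were 192, 158 and 246 in NT libraries 1 to 3 and 417, 386 and 419.7 in OXA libraries 1 to 3. The OXA libraries agreed closely, within 4.57% (coefficient of variation), whereas the NT libraries varied by 22.4%. The estimated log2 change was 1.03 (± 0.18 SE, 2.05-fold, adjusted p = 0.0231 by edgeR). The call was lost without NT library 2 or any one OXA library, at an edgeR adjusted p of 0.0597 to 0.114.

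S100A3 (ENSG00000188015, chr1:153547329-153549258, minus strand), a zinc-binding protein best known from the hair cuticle, was low, with 29, 45 and 47 raw counts in NT libraries 1 to 3 and 62, 97 and 85 in OXA libraries 1 to 3. The groups did not overlap, but both were spread widely for their size. Its log2 change of 1.05 was thus close to that of S100A2 with a larger error (± 0.27 SE, 95% interval 0.42 to 1.69, adjusted p = 0.0717 by edgeR). With the replicate block the edgeR adjusted p was 0.0161. The gene lies within the bounds of S100A4 on the same strand, with 0 exon bases in common.

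S100A4 (ENSG00000196154, chr1:153543613-153550136, minus strand), which binds non-muscle myosin heavy chains and is known for its part in cell motility and metastasis, differed more between replicate numbers than between the groups. It had 4070, 3937 and 7749 normalized counts in NT libraries 1 to 3 and 4895, 4522 and 8187 in OXA libraries 1 to 3. Replicate 3 was the highest library in both groups, at 1.94 times the mean of the others in NT and 1.74 times in OXA. This gave a log2 change of 0.16 (± 0.32 SE, 95% interval -0.57 to 0.89, adjusted p = 0.819 by edgeR), so a rise of up to 1.86-fold lies within the interval. Within same-numbered pairs OXA was higher by 0.27, 0.20 and 0.079 on the log2 scale, and with the replicate block the log2 change was 0.18 (adjusted p = 0.0680 by edgeR). Its sign changed without NT library 2 (-0.038) and without OXA library 3 (-0.19).

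S100A6 and S100A4, the members with the largest and the smallest estimate, were set against each other within single libraries after their values were seen, so the ratio is a description. There were 2.77, 3.33 and 1.94 S100A6 counts for each S100A4 count in NT libraries 1 to 3, and 5.40, 6.09 and 3.84 in OXA libraries 1 to 3.

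**Figure D2:**
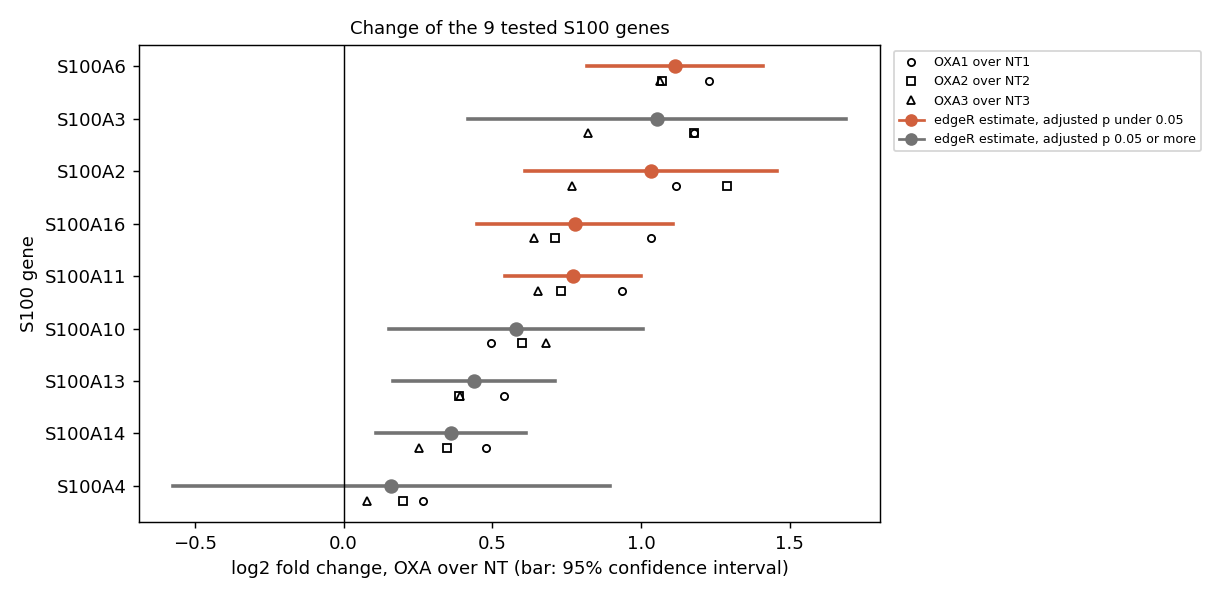
Log2 fold change of OXA over NT for the 9 tested S100 genes, with filled points and bars for the edgeR estimate and its 95% confidence interval (orange at an adjusted p under 0.05, grey otherwise) and open symbols for the ratio within each same-numbered pair of libraries. All pairs lie above 0 for every gene, and only the interval of S100A4, from -0.57 to 0.89, crosses 0.

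The 3 remaining expressed members lie together at the far end of the cluster. S100A16 (ENSG00000188643, chr1:153606886-153613145, minus strand), a widely expressed member, had 2574, 3455 and 3754 normalized counts in NT libraries 1 to 3 and 5264, 5650.0 and 5853 in OXA libraries 1 to 3. NT library 1 was the lowest of all. edgeR put the log2 change at 0.78 (± 0.14 SE, 1.71-fold, adjusted p = 0.0258), and at 0.63 without NT library 1 (adjusted p = 0.00476). Without any other library the edgeR adjusted p was 0.0534 to 0.112.

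S100A14 (ENSG00000189334, chr1:153614255-153616986, minus strand), an epithelial member, changed least among the genes whose groups did not overlap. Its normalized counts were 2368, 2742 and 2401 in NT libraries 1 to 3 and 3298, 3493 and 2864 in OXA libraries 1 to 3. The lowest OXA library stood just above the highest NT library. With all 6 libraries the log2 change was 0.36 (± 0.11 SE, 1.28-fold, adjusted p = 0.102 by edgeR), with an edgeR adjusted p of 0.0145 under the replicate block.

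S100A13 (ENSG00000189171, chr1:153618787-153631360, minus strand) takes part in the export of FGF1 and interleukin 1 alpha, which lack a signal peptide. It had 1326, 1325 and 1587 normalized counts in NT libraries 1 to 3 and 1927, 1734 and 2081 in OXA libraries 1 to 3. OXA exceeded NT by a log2 change of 0.44 (± 0.12 SE, 1.35-fold, adjusted p = 0.0777 by edgeR), and the edgeR adjusted p was 0.00919 with the replicate block. Of its exon bases, 10.6% also belong to S100A1 on the other strand and 24.2% to a long noncoding RNA on its own strand. How overlapping genes were counted is not given in the sources used here, and its effect on S100A13 was not tested.

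S100P (ENSG00000163993, chr4:6693878-6697170, plus strand), a member that binds ezrin and is often abundant in carcinomas, had 0, 0 and 2 raw counts in NT libraries 1 to 3 and 0, 0 and 3 in OXA libraries 1 to 3. No library exceeded the floor of 3 counts, so a change was not detectable at this depth and no fold change is given.

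**Figure D3:**
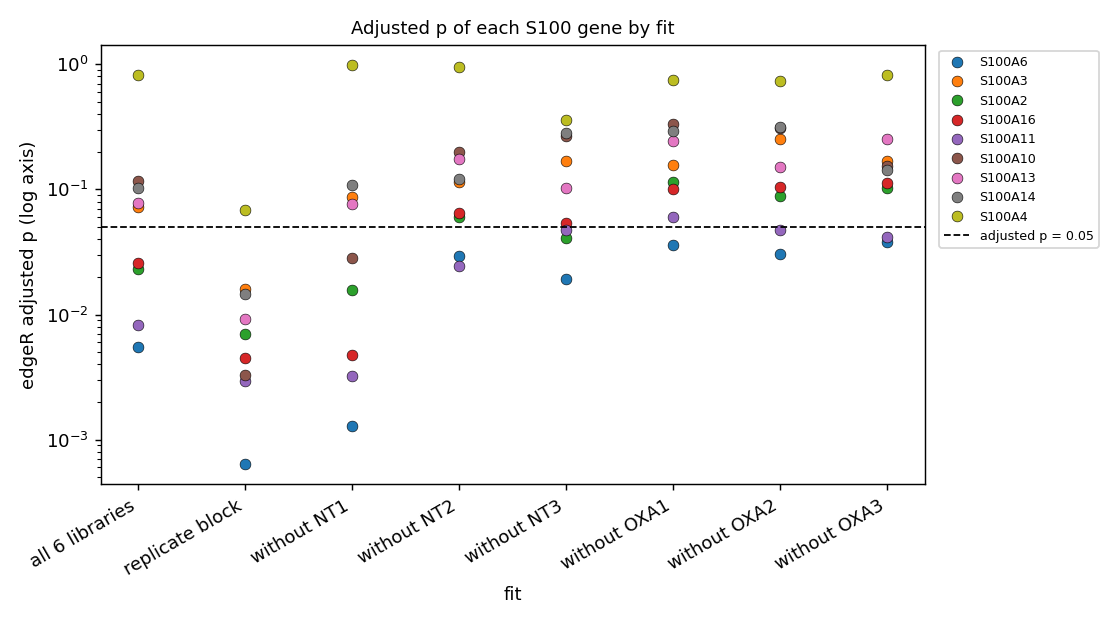
edgeR adjusted p (log axis) of each tested S100 gene in the fit of all 6 libraries, in the fit with the replicate block and in the 6 fits that each left out 1 library, with a dashed line at 0.05. S100A6 is below the line in all 8 fits shown, with 0.0378 as its highest value, whereas all genes but S100A4 are below it with the replicate block.

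Along the chromosome, genes with large and small estimates stood side by side. From S100A6 to S100A1 the S100 genes span 97.4 kb, and the log2 changes in this order were 1.12 for S100A6, 0.15 for S100A5, 0.16 for S100A4, 1.05 for S100A3, 1.03 for S100A2, 0.78 for S100A16, 0.36 for S100A14, 0.44 for S100A13 and -0.41 for S100A1. S100A5 lies 0.903 kb from S100A6, with 30, 43 and 51 raw counts in NT libraries 1 to 3 and 36, 38 and 61 in OXA libraries 1 to 3 (log2 change 0.15, ± 0.26 SE, adjusted p = 0.801 by edgeR). The interval of S100A5 ends at 0.76 and that of S100A6 begins at 0.82. The wide interval of S100A4, from -0.57 to 0.89, overlaps those of S100A6, S100A3 and S100A2. The interval of S100A5 also overlaps those of S100A3 and S100A2, which begin at 0.42 and 0.61. Differences between neighbours were not themselves tested. S100A1, on the opposite strand, was low as well, with 14 to 32 raw counts (adjusted p = 0.542 by edgeR).

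**Figure D4:**
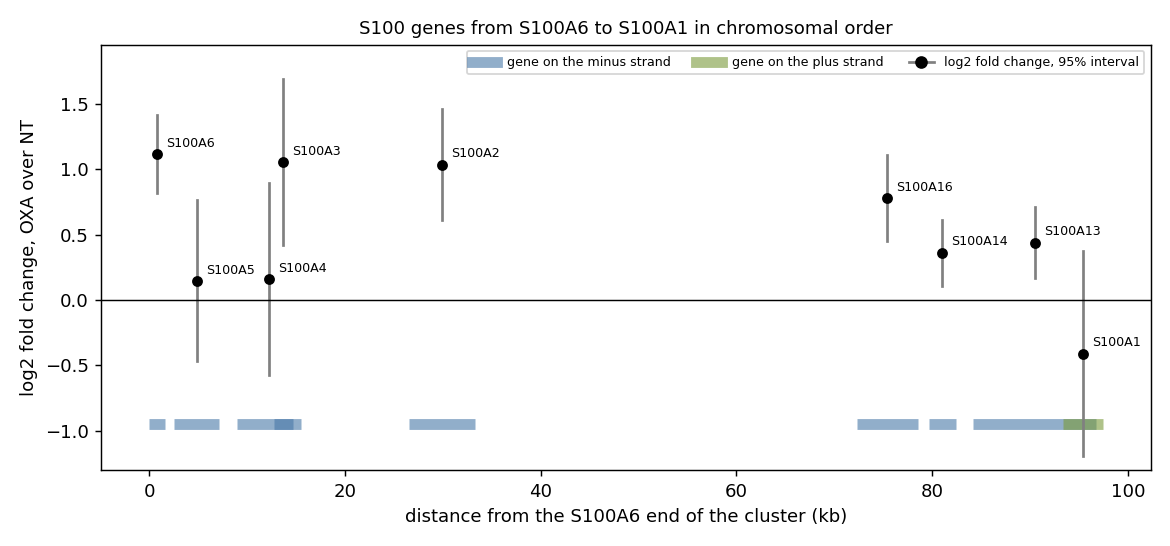
Log2 fold change of OXA over NT with 95% confidence intervals for the S100 genes between S100A6 and S100A1, placed by their distance in kb from the S100A6 end of the cluster, with gene bodies drawn at the bottom by strand. S100A5 and S100A4, at 0.15 and 0.16, lie between S100A6 and S100A3, at 1.12 and 1.05.

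The other members of the family were nearly silent. Of 11 further S100 genes, only S100A5 and S100A1 were tested, neither was called, and their median log2 change was -0.13. The genes S100A7, S100A8 and S100B had at most 2 counts in any library, and S100A9, S100A12, S100A7A, S100A7L2, S100G and S100Z had 0. S100A8 and S100A9, which form calprotectin and mark myeloid cells, were thus at 1 and 0 counts in all 6 libraries together.

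Of the 50 other genes that the table holds between S100A10 and S100A1, many of them genes of the cornified envelope, 36 had no count and 3 were tested. FLG, which encodes filaggrin, a protein that itself begins with an S100-like domain, had 2, 4 and 5 raw counts in NT libraries 1 to 3 and 38, 45 and 67 in OXA libraries 1 to 3 (log2 change 3.75, ± 0.37 SE, adjusted p = 0.00340 by edgeR). HRNR, which encodes the related hornerin, had 0, 3 and 6 in NT libraries 1 to 3 and 31, 49 and 54 in OXA libraries 1 to 3 (log2 change 3.88, ± 0.60 SE, adjusted p = 0.0153 by edgeR). Both were under 10 counts in every NT library and passed the filter only through OXA, so they had to differ in order to be tested. The other tested gene, BX470102.2, had a log2 change of 0.37 (adjusted p = 0.447 by edgeR). With a filter of at least 50 counts in 3 libraries, FLG and HRNR were no longer tested.

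Among 44 genes for partners and receptors of S100 proteins, 39 were tested, 5 rose and 3 fell, with a median log2 change of 0.11, where 2.78% of all genes were called higher and 2.29% lower. None of the 5 annexins listed passed the test, but ANXA6, named after its values were seen, was lower with the replicate block (log2 change -0.32, adjusted p = 0.0676 by edgeR, 0.0167 with the block). ANXA2, the partner of S100A10, averaged 65917 ± 5956 (SD, 3 libraries) in NT against 72181 ± 3845 normalized counts after OXA (log2 change 0.13, adjusted p = 0.499 by edgeR), and ANXA1, the partner of S100A11, averaged 20164 ± 3540 and 20039 ± 3090 (log2 change -0.0089, adjusted p = 0.983 by edgeR). NCL, which encodes nucleolin, was as abundant as ANXA2 and had a log2 change of 0.029 (adjusted p = 0.923 by edgeR). CACYBP, the partner of S100A6, had -0.079 (adjusted p = 0.784 by edgeR), and MYH9, the myosin partner of S100A4, had 0.23 (adjusted p = 0.608 by edgeR). CACYBP and MYH9 were named after their values were seen.

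The partner genes that rose were MDM2, AHNAK2, EZR, AHNAK and PPFIBP1. AHNAK, a giant scaffold bound by S100A10 and annexin A2, had 16878, 18998 and 19698 normalized counts in NT libraries 1 to 3 and 28300, 28437 and 27976 in OXA libraries 1 to 3 (log2 change 0.61, ± 0.089 SE, adjusted p = 0.0118 by edgeR). Its relative AHNAK2 had a log2 change of 1.17 (± 0.24 SE, adjusted p = 0.0358 by edgeR). EZR, which encodes ezrin, a partner of S100P, had 0.68 (adjusted p = 0.00987 by edgeR), and PPFIBP1, which encodes liprin beta-1, a partner of S100A4, had 0.55 (adjusted p = 0.0314 by edgeR). MDM2, a ubiquitin ligase, had 2.22 (adjusted p = 0.000445 by edgeR).

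The partner genes that fell were SYT1, MDM4 and RAD54B. SYT1, which encodes synaptotagmin, found with S100A13 in the complex that exports FGF1, had 5275, 4713 and 5342 normalized counts in NT libraries 1 to 3 and 3541, 3261 and 3602 in OXA libraries 1 to 3 (log2 change -0.56, ± 0.090 SE, adjusted p = 0.0174 by edgeR). MDM4, a relative of MDM2, had a log2 change of -0.49 (adjusted p = 0.0273 by edgeR), and RAD54B, a DNA repair gene, -0.70 (adjusted p = 0.0363 by edgeR). The receptors AGER and TLR4, also named after their values were seen, were low. AGER, the receptor for advanced glycation end products, had 34 to 60 raw counts in NT libraries and 49 to 65 in OXA libraries (adjusted p = 0.634 by edgeR), and TLR4 had 1 count in all. With the replicate block, 7 partner genes were higher and 7 lower, against 12.1% and 10.9% of all genes.

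The S100 genes were set beside 42 other genes for EF-hand proteins, which share the calcium-binding fold. Of these, 32 were tested, 2 rose and 1 fell, against 2.78% and 2.29% of all genes, and their median log2 change was 0.062. The genes that rose were CAPN2, the large subunit of calpain 2, with 0.49 (± 0.090 SE, adjusted p = 0.0259 by edgeR), and MYL6, a myosin light chain, with 0.42 (± 0.080 SE, adjusted p = 0.0293 by edgeR). GCA, which encodes grancalcin, fell, with a log2 change of -0.56 (± 0.13 SE, adjusted p = 0.0493 by edgeR). The most abundant genes of this group, CALM3 with -0.084, MYL12B with 0.095 and CALM2 with 0.059, did not pass the test, with an edgeR adjusted p of 0.588 or more. With the replicate block, 8 of the 32 were higher and 5 lower, against 12.1% and 10.9% of all genes.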

How the data were processed

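Polyadenylated RNA of HCT116 cells was sequenced in 6 stranded libraries as paired reads of 100 nt. Mapping by the authors was to GRCh38 with STAR 2.7.5b, and the submitters' processing notes also name Trimmomatic 0.32, RSEM 1.3.3 and DESeq2 2.13. The gene annotation and strand setting are not given in the sources used here. The authors deposited a raw count and a normalized signal for each of 27942 genes and 6 libraries. The counts are whole numbers, and whether they are rounded RSEM estimates is not stated. The deposited normalized signal is the count times a factor that differs between genes and libraries (0.851 to 1.12 for the expressed S100 genes), and it was used only as an alternative.

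Genes were filtered with filterByExpr (minimum count 10, minimum total 15), which left 13727, normalized by TMM and tested with edgeR's quasi-likelihood test in R 4.3.3 with edgeR 4.0.16. P-values were adjusted by Benjamini and Hochberg's method over the 13727 genes, with a threshold of 0.05. The alternatives used DESeq2 1.42.0 and limma 3.58.1. The standard error is the log2 fold change over the square root of F. Steps were tested on simulated counts with known fold changes, the same spread setting for every gene and no effect of the replicate number. The simulation thus cannot show how the test behaves with such an effect. Positions and exon lengths came from GENCODE 44, which held 99.1% of the table's genes. Counts carry no molecular identifiers, so precision from depth covers counting error only, and values at or under 3 counts were treated as the detection floor.

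The members, lists and comparisons were chosen with earlier results of these data known. Named are all members and, of each list, the genes called and the 3 most abundant, with a few fixed partners (ANXA1, ANXA2, MDM2, EZR) and CDKN1A. A further partner gene and a promoter motif are not reported here. Between NT and OXA, libraries of equal number departed from their group means in the same direction (correlation over 13727 genes 0.55, 0.54 and 0.31 for replicates 1 to 3, all over the limit of 0.1). The numbers come from the sample labels, which do not say what a number stands for. Results of the replicate block are printed for each S100 gene whose call it changes and as counts for the gene lists. Alternatives were other size factors, filters and tests, the authors' normalized signal (log2 of the value plus 1), the block, and each library left out.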

Additional observations from a re-analysis of the deposited data

How the results depend on the processing

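The count of S100 genes called higher was 4 with other size factors, either filter, limma-voom and the authors' normalized values. It was 7 with DESeq2, 8 with the replicate block, and 1 to 5 without 1 of the libraries, the lowest without OXA library 1 and the highest without NT library 1. None was called lower in any setting. S100A4 was the only member whose sign changed, to -0.03808 without NT replicate 2 and -0.1884 without OXA replicate 3, within a range of -0.1884 to 0.521 over the fits that each left out 1 library. Over all 13727 genes tested, 381 (2.78%) were higher and 315 (2.29%) lower. Of the same 13727 genes, the authors' normalized values gave 236 and 187, and the replicate block 1664 (12.1%) and 1493 (10.9%). DESeq2 gave 609 and 578 of 19353 genes with an estimate. Leaving out 1 library gave 66 to 623 and 19 to 571, of 13856 to 13921 genes tested. Upper quartile factors gave 493 lower, and the share of calls that were higher went from 54.7% to 41.4%. Partner genes called lower numbered 3, but 5 with upper quartile factors, 6 with DESeq2, 7 with the replicate block and 0 to 4 when a library was left out, which gave 1 to 6 called higher. EF-hand genes called higher numbered 2, but 6 with DESeq2, 1 with the authors' normalized values, 8 with the replicate block and 0 to 3 without 1 library. Those called lower numbered 1, but 0 with limma-voom and with the authors' normalized values, 5 with the replicate block and 0 to 1 without 1 library. Genes called higher in the chromosome 1 interval numbered 2, FLG and HRNR, which passed the filter only through their OXA counts. The number was 0 under the stricter filter, which drops them, and 1 to 2 without 1 library. As both genes had to differ in order to be tested, these counts are no support for the calls. The share of S100A6 in the summed S100 level in NT was 39.1%, and 42.9% with mean transcript lengths, which change the denominators. The cause of the other differences was not tested. Depth limits S100P and most other S100 genes, which lie at or under the floor.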
